A study of Drosophila melanogaster with 6 samples.

Results

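The odorant-binding protein (Obp) genes of Drosophila melanogaster were followed in single-cell RNA data from the developing foreleg. They were chosen by symbol alone, as every feature whose symbol starts with Obp followed by a digit, and this gave 51 of the 16496 features of the count tables. 18 of the 51 were detected, which here means 50 or more unique molecular identifiers (UMIs, 1 per captured RNA molecule) in at least 1 of the 6 libraries. In single libraries 9 to 15 members had 50 or more UMIs, and so did 50.8% to 56.0% of all features. The share of all features that passed in at least 1 of the 6 libraries is not given here. The tissue was the first tarsal segment, the part of the foreleg next to the tibia, which in the adult carries taste bristles and, in males, the sex comb.

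Odorant-binding proteins are small secreted carriers of hydrophobic molecules. They are known best from the fluid that bathes the nerve endings of smell and taste hairs, into which the support cells of each hair (the socket, shaft and sheath cells) release them. Many family members are also known from tissues with no sensory role, such as fat body, glia and secretory epithelia. The genes lie in tandem groups, and members of 1 group often differ in where they are expressed.

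The 6 libraries were 1 each from males 12 h, 16 h, 20 h and 36 h after puparium formation, from females of 24 h and from females of 12 h. The 12 h, 20 h and 36 h male libraries and the 12 h female library came from dsx-GAL4 > UAS-mCherry pupae, in which the doublesex driver marks part of the tissue with a red reporter. The 16 h males were dsx-GAL4 > UAS-GFP, with a green reporter, and the 24 h females were RAL-517, an inbred strain. Between 65 and 70 segments were pooled for a suspension, and the tissue was dissociated for 35 min, or for 45 min at 36 h. Age therefore cannot be told apart from dissociation time at 36 h or from the reporter at 16 h, and in the 24 h female library age cannot be told apart from strain. With 1 library per group there is no replicate, so no test between groups was made, and every interval given is a 95% interval of counting error only.

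The libraries held 9709 to 12376 retained cells, with medians of 5121 UMIs per cell in the 16 h males and 8274.5 to 12111.5 in the other libraries. In the 24 h female library, 270 of 12376 cells (2.18%) had at least 3 UMIs of each of the male-specific RNAs roX1 and roX2. Leaving these cells out moved the Obp28a level there to 33.8 counts per 1000000 (CPM, the UMIs of a gene among 1000000 UMIs of the cells summed), against 33.0 CPM with them. Clusters of cells were named by marker genes, with "-like" for a name that rests on markers alone. No shaft-like cluster was found in the 12 h and 16 h libraries, no tendon-like cluster in 36 h males or 24 h females and no sheath-like cluster in 12 h females, and 12.0% (24 h females) to 28.3% (12 h males) of cells stayed unnamed, some of them in clusters led by epithelial genes. In the named classes, defining markers stood above the other cells of the same library, by 13.8-fold to 199-fold for the blood cell gene Hml, 52.9-fold to 330-fold for the glial gene repo, 73.7-fold to 603-fold for the sheath gene nompA, 31.4-fold to 153-fold for the tendon gene sr and 8.10-fold to 93.6-fold for the socket gene Su(H). The shaft gene sv stood 9.61-fold to 13.9-fold above the other cells. The muscle gene Mef2 was weaker, at a lowest 1.64-fold, and so was the sensory precursor gene sens in 20 h males, at 2.37-fold and 0.510 CPM, against 71.9-fold to 121-fold in the 4 other libraries with that class. A class other than epithelium was named only where a defining marker passed the naming limit, so these folds are no test of the names. The epithelium-like name needed epithelial markers to be present but not raised above the other cells. Any pair of libraries shared 19 to 41 retained cell barcodes.

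The share of all UMIs that came from Obp genes was 0.0172% in males of 12 h, 0.103% at 16 h, 1.23% at 20 h and 0.183% at 36 h. It was 0.727% in 24 h females and 0.0263% in 12 h females. The family was thus a minor class of RNA at 12 h in both sexes and was largest in males of 20 h and in females of 24 h. 1 gene made up most of that total at every age after 12 h. Obp56a held 88.2% of the Obp UMIs in males of 16 h, 92.6% at 20 h and 55.7% at 36 h, and 91.1% in 24 h females. At 12 h the leading gene was Obp83g in males, with 41.1% of the Obp UMIs, and Obp99a in females, with 36.0%. Among all features, Obp56a ranked 6 by UMIs in the 20 h males and 13 in the 24 h females.

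**Figure D1:**
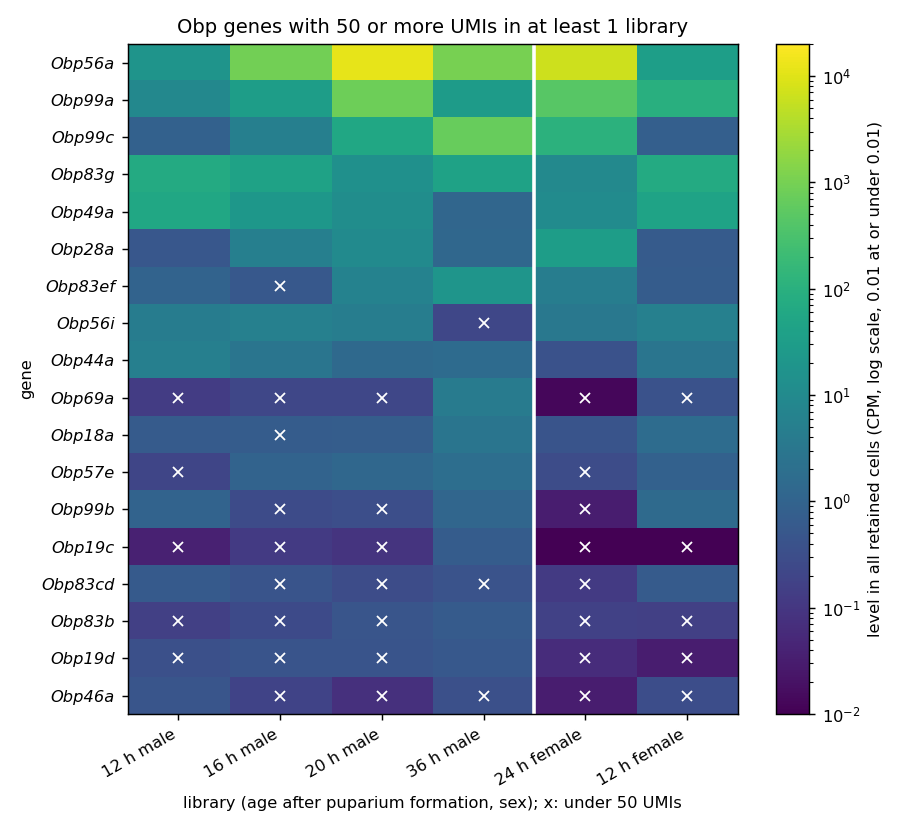
Heat map of the level (colour, CPM on a log scale) of the 18 detected Obp genes (rows) in the 6 libraries (columns), with a cross where a library held under 50 UMIs. Obp56a reaches 11417 CPM in 20 h males and 6619 CPM in 24 h females, while most rows stay under 10 CPM.

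Detection varied between libraries. In males, 13 members passed 50 UMIs at 12 h, 9 at 16 h, 11 at 20 h and 15 at 36 h, against 10 in 24 h females and 13 in 12 h females. The 16 h library, with the fewest detected, was also the shallowest. In every library 50.8% to 56.0% of all features passed the same minimum. 7 members passed it in all 6 libraries: Obp28a, Obp44a, Obp49a, Obp56a, Obp83g, Obp99a and Obp99c. The members just inside the minimum were Obp19d, with 57 UMIs at most, and Obp46a, with 60, and the member just outside was Obp56h, with 44.

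The members are described by the cells that held most of them at their higher levels, as the class plots show. Obp56a and Obp83g are placed in epithelium and tendon, and Obp99a and Obp56i in epithelium. Obp28a is placed in bristle support cells, Obp99c and Obp83ef in blood cells, and Obp69a and Obp19c in glia. Obp49a, Obp18a, Obp99b and Obp44a were each spread over several classes, and the class differed between libraries. Since UMIs are counted from the 3′ end, 1 per molecule, levels were not divided by transcript length. In a summed library, fewer cells of a type and less RNA per cell cannot be told apart, so each gene is also given within its class.

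Obp56a (FBgn0034468, chromosome 2R, 19697723 to 19698508 on the plus strand of BDGP6) was the most abundant member. Its level was 17.8 CPM, 905 CPM, 11417 CPM and 1019 CPM in males of 12 h, 16 h, 20 h and 36 h, against 6619 CPM in 24 h females and 34.9 CPM in 12 h females. The 20 h and 24 h libraries were high, those of 16 h and 36 h intermediate and both 12 h libraries low. On the log2 scale the 16 h over 12 h male ratio was 5.67 (95% interval 5.61 to 5.73), or 6.27 with each cell thinned to 2000 UMIs, the 20 h over 16 h ratio was 3.66 (3.65 to 3.67) and the 36 h over 20 h ratio was -3.49 (-3.49 to -3.48). The 24 h over 12 h female ratio was 7.57 (7.52 to 7.61).

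Within the epithelium-like class, Obp56a stood at 8.53 CPM, 1361 CPM, 15371 CPM and 1793 CPM in males of 12 h, 16 h, 20 h and 36 h, and at 9038 CPM in 24 h females against 21.9 CPM in 12 h females. The order of the libraries was the same as in the summed cells. This class held 84.7%, 95.6% and 89.3% of the gene's UMIs in the 16 h, 20 h and 36 h males and 92.6% in the 24 h females. Nearly every epithelium-like cell carried the RNA at the peak: the median cell had 45 UMIs of it in 20 h males, 35 in 24 h females, 5 in 36 h males, 1 in 16 h males and 0 in both 12 h libraries.

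Obp56a UMIs also turned up in every other class of the 20 h males, all under the epithelium-like level. They ran from 346 CPM in shaft-like cells to 1790 CPM in tendon-like cells, 2093 CPM in 32 muscle-like cells and 4247 CPM in unnamed cells. With each cell thinned to 2000 UMIs, 95.1% of epithelium-like cells and 60.4% of hemocyte-like cells had an Obp56a UMI, against 99.95% and 97.4% unthinned, at median depths of 11281 and 9438 UMIs. In 24 h females the thinned shares were 91.0% and 35.9%. Hemocytes are blood cells, set apart from the leg epithelium, and their share is given for comparison. At 20 h the thinned shares of shaft-like (40.0%), socket-like (51.3%), neuron-like (56.1%) and glia-like cells (56.7%) were below it. Those of sensory precursor-like (61.9%), sheath-like (63.2%) and muscle-like cells (69.0%) were above it, with intervals that overlapped that of hemocyte-like cells. The neuron-like level, 859 CPM, was above that of hemocyte-like cells. Tendon-like cells, at 69.6% (55.9% to 81.2%) and a median depth of 7668 UMIs, had a share whose interval overlapped that of hemocyte-like cells (54.4% to 66.1%), but their level was above the 663 CPM of hemocyte-like cells. The part of free RNA in the levels of these other classes was not tested.

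**Figure D2:**
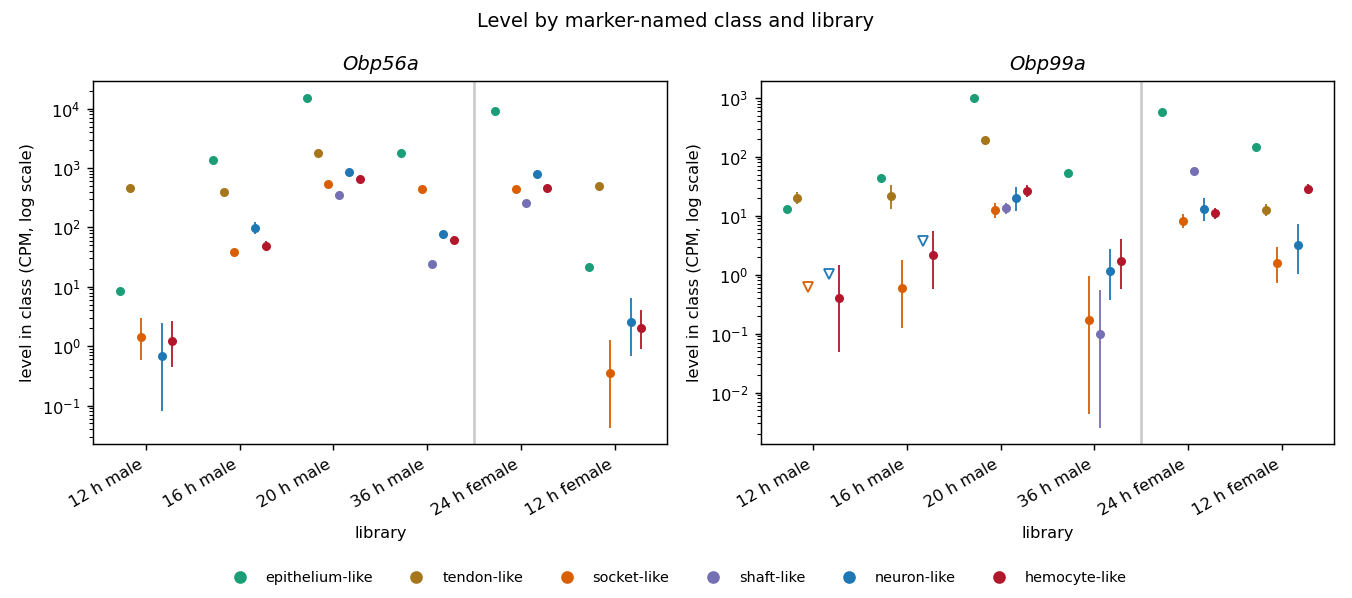
Levels of Obp56a and Obp99a (CPM, log axis) by marker-named cell class in each library, for classes of at least 50 cells; points are summed UMIs of a class, bars are 95% Poisson intervals, and open triangles mark 0 UMIs, drawn at a floor of 3 counts. Epithelium-like cells lead for Obp56a at 15371 CPM in 20 h males and 9038 CPM in 24 h females, and tendon-like cells lead at 12 h.

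At 12 h Obp56a belonged mostly to another class. Tendon-like cells, in which sr marks the cells that anchor muscle, held 68.8% of its UMIs in 12 h males (464 CPM, interval 442 to 488, 174 cells) and 57.6% in 12 h females (497 CPM, 478 to 517, 193 cells). The tendon-like levels of the sexes were close, with a male over female log2 ratio of -0.10 (-0.19 to -0.01), whereas in epithelium-like cells the ratio was -1.36 (-1.50 to -1.23). These tendon-like UMIs sat in few cells: 19.0% of tendon-like cells in 12 h males had a UMI of Obp56a, and 3 cells of the whole library held at least 50% of all its UMIs, against 8 cells in 12 h females. In later tendon-like cells the level was 392 CPM at 16 h and 1790 CPM at 20 h.

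Epithelium-like clusters differed from each other in Obp56a. Among clusters of at least 50 cells, the 10 such clusters of the 20 h males ran from 3391 to 22562 CPM, and the 12 of the 24 h females from 2168 to 16433 CPM. At 36 h the range was 587 to 9764 CPM over 10 clusters, and the highest was a cluster of 202 cells led by CG13042, CG14191, CG7214, CG17127 and TwdlT. The highest cluster of at least 10 cells in the 20 h males was a group of 25 cells at 29793 CPM, led by CG6409, Nep2, CG10348, Cpr51A and the reporter mCherry. At 12 h no epithelium-like cluster exceeded 45.1 CPM.

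Obp99a (FBgn0039678, chromosome 3R, 29671657 to 29672334, plus strand) was the second member in 20 h males and 24 h females. Its level was 8.86 CPM, 32.5 CPM, 802 CPM and 28.8 CPM in males of 12 h, 16 h, 20 h and 36 h, against 474 CPM in 24 h females and 94.7 CPM in 12 h females. As for Obp56a, the 20 h and 24 h libraries were the high ones, but here the 12 h females stood above the 12 h, 16 h and 36 h males. The log2 ratio was 4.63 (4.56 to 4.69) for 20 h over 16 h and -4.80 (-4.85 to -4.75) for 36 h over 20 h in males. Epithelium-like cells held 74.3% to 95.1% of its UMIs in the 6 libraries.

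Obp99a was patchier within the epithelium than Obp56a. In 20 h males 1 cluster of 950 cells, led by CG34327, TfAP-2, net, CG1607 and dysf, had 5423 CPM and held 54.8% of the UMIs, and the lowest epithelium-like cluster had 80.3 CPM. A cluster with TfAP-2 among its 5 leading genes was also the highest epithelium-like cluster in the 12 h males (94.8 CPM, 51.5% of UMIs), the 36 h males (313 CPM, 67.8%) and the 24 h females (4660 CPM, 32.6%). TfAP-2 encodes a transcription factor of leg patterning that acts at the joints. In 16 h males the highest was instead a cluster led by wg, Wnt6 and H15, genes of the ventral leg, at 138 CPM, with a TfAP-2 cluster next at 116 CPM.

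The 12 h females again had another leading cluster for Obp99a. It held 283 cells led by Dro and AttA, which encode antimicrobial peptides, and by CG1299, CG14191 and ple, with 1562 CPM and 48.1% of the gene's UMIs. The next, a TfAP-2 cluster of 620 cells, had 481 CPM. The 12 h male over female log2 ratio of Obp99a was -3.42 (-3.51 to -3.33), and without the Dro and AttA cluster of the females, whose level was then 50.7 CPM, it was -2.51. 20 cells held at least 50% of the Obp99a UMIs in the 12 h females.

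Obp83g (FBgn0046875, chromosome 3R, 6111671 to 6112302, minus strand) ran the other way with age. It stood at 70.9 CPM, 42.7 CPM, 14.3 CPM and 41.7 CPM in males of 12 h, 16 h, 20 h and 36 h, against 9.01 CPM in 24 h females and 72.0 CPM in 12 h females. Both sexes were alike at 12 h, with a male over female log2 ratio of -0.02 (-0.07 to 0.02), and the lowest levels were in the libraries where Obp56a was highest. At 12 h it was spread over many cells, with a UMI in 32.6% of all cells of the 12 h males and 31.1% of the 12 h females. Tendon-like cells had the highest class level, 199 CPM, 188 CPM and 81.2 CPM in males of 12 h, 16 h and 20 h and 140 CPM in 12 h females, and epithelium-like cells, at 102 CPM in 12 h males and 97.5 CPM in 12 h females, held most of the UMIs.

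Obp56i (FBgn0043532, chromosome 2R, 19864717 to 19868714, plus strand), at the far end of the gene group that Obp56a opens, was a low member with most of its UMIs in epithelium. Its level was 4.5 CPM, 5.63 CPM, 4.73 CPM and 0.222 CPM in males of 12 h, 16 h, 20 h and 36 h, against 3.26 CPM in 24 h females and 5.69 CPM in 12 h females. The 36 h library stood apart, with a 36 h over 20 h log2 ratio of -4.41 (-5.08 to -3.81). In 12 h males sensory precursor-like cells, at 5.16 CPM (4.14 to 6.35), were close to epithelium-like cells, at 5.94 CPM (5.41 to 6.52). No cell had more than 4 UMIs, and epithelium-like cells held 66.1% to 93.5% of its UMIs across the libraries.

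Obp28a (FBgn0011283, chromosome 2L, 7496791 to 7497365, minus strand) is one of the abundant odorant-binding proteins of the adult antenna, where support cells of smell hairs make it. In the leg it stood at 0.513 CPM, 5.34 CPM, 10.2 CPM and 1.26 CPM in males of 12 h, 16 h, 20 h and 36 h, against 33.0 CPM in 24 h females and 0.646 CPM in 12 h females. The 24 h females were highest and both 12 h libraries lowest. The female log2 ratio of 24 h over 12 h was 5.67 (5.36 to 6.01), and the male ratio of 36 h over 20 h was -3.0 (-3.28 to -2.74).

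Obp28a lay in the support cells of bristles. In socket-like cells its level was 8.46 CPM, 44.7 CPM, 114 CPM and 6.74 CPM in males of 12 h, 16 h, 20 h and 36 h, and 484 CPM in 24 h females against 6.27 CPM in 12 h females. In sheath-like cells of males it was 12.8 CPM, 145 CPM, 118 CPM and 32.0 CPM at the same ages, and 33.2 CPM in 24 h females. The 12 h sheath-like value rests on 10 UMIs, all in 1 of 76 cells. Shaft-like cells had 63.3 CPM and 0.80 CPM in males of 20 h and 36 h and 182 CPM in 24 h females. Socket-like cells held 63.7% of the UMIs in 24 h females and shaft-like cells 30.3%, while at 36 h the largest share, 34.4% of 131 UMIs, was in unnamed cells.

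Obp28a was not shared by all socket-like cells. In 24 h females 35.2% of the 401 socket-like cells had a UMI of it (20.4% when thinned to 2000 UMIs), against 1.15% of the hemocyte-like cells (0.191% thinned), and the median depths of these classes were 15771 and 14379.5 UMIs. 1 cluster of 364 cells, led by Su(H), ect, nrm, CG8012 and Osi7, held 63.0% of the UMIs at 571 CPM. The 124 cells richest in it (1% of the library) held 91.3% of its UMIs.

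Obp49a (FBgn0050052, chromosome 2R, 12690059 to 12690955, minus strand) is known from the support cells of adult taste hairs, where it is needed for bitter compounds to suppress the response to sugar. Its summed level was 58.1 CPM, 21.2 CPM, 12.0 CPM and 1.23 CPM in males of 12 h, 16 h, 20 h and 36 h, against 11.0 CPM in 24 h females and 44.3 CPM in 12 h females. The 12 h libraries were high in both sexes and the 36 h library was low. The 36 h over 12 h male log2 ratio was -5.57 (-5.83 to -5.31), and the 24 h over 12 h female ratio was -2.01 (-2.09 to -1.94), or -2.83 with thinned cells.

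The class of Obp49a differed between the young and the older libraries. At 12 h epithelium-like cells held 94.8% of the UMIs in males and 85.3% in females, at 93.6 CPM and 61.5 CPM. In later epithelium-like cells the level was 20.3 CPM, 2.49 CPM and 0.476 CPM in males of 16 h, 20 h and 36 h, and 0.525 CPM in 24 h females. In socket-like cells it was 32.4 CPM, 91.6 CPM, 99.2 CPM and 11.0 CPM in males of 12 h, 16 h, 20 h and 36 h, and 117 CPM in 24 h females against 13.1 CPM in 12 h females. Shaft-like cells had 95 CPM in 20 h males, 1.40 CPM in 36 h males and 95.8 CPM in 24 h females. These levels rest on few cells: 1 shaft-like cell held 293 of the 813 UMIs of its class in 24 h females, where 5 cells held at least 50% of all Obp49a UMIs, and 1 socket-like cell held 156 of 461 at 16 h. The summed level of Obp49a was thus lower in the older libraries while its level in socket-like cells at 16 h, 20 h and 24 h was above that at 12 h.

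The epithelial Obp49a of 12 h was also held by few cells. In 12 h males 1 cluster of 382 cells, led by CG13044, Ccp84Aa, Lcp65Ad, Tsf1 and nub, had 895 CPM and 66.9% of the UMIs, and 106 cells (1% of the library) held 92.6%. In 12 h females the highest cluster held 695 cells led by CG34205, CG13044, CG2016, Lcp65Ad and Cpr62Bb, at 254 CPM and 46.9%. Ccp84Aa, Lcp65Ad and Cpr62Bb encode cuticle proteins. With 3 UMIs or more as the minimum, 43 of 4890 epithelium-like cells of the 12 h males had Obp99a, 129 had Obp49a and 1 had both, which is 2.33% of the Obp99a cells, against 2.64% of the class with Obp49a. In 12 h females the numbers were 172, 106 and 0 of 5813, and 1.82% of the class had Obp49a.

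**Figure D3:**
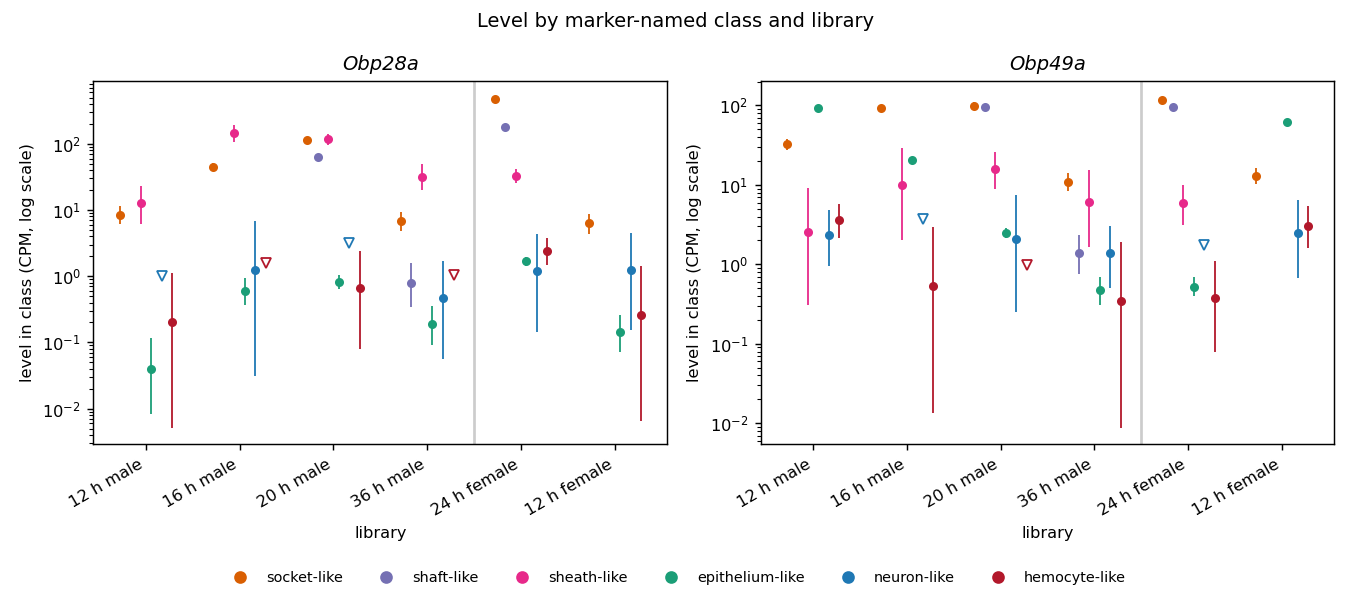
Levels of Obp28a and Obp49a (CPM, log axis) by marker-named cell class in each library, for classes of at least 50 cells, with 95% Poisson intervals and open triangles for 0 UMIs at a floor of 3 counts. Obp28a is highest in socket-like cells of 24 h females (484 CPM), and Obp49a stands at 99.2 CPM in socket-like cells at 20 h while its epithelium-like level is 2.49 CPM.

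Few cells had both Obp28a and Obp49a. In 24 h females, 89 of 401 socket-like cells had at least 3 UMIs of Obp28a, 26 had at least 3 of Obp49a and 9 had both, which is 10.1% of the first set and 34.6% of the second, against 22.2% of the class with Obp28a. In the shaft-like cells of that library the numbers were 54, 15 and 4 of 388, so that 26.7% of the Obp49a cells had Obp28a, against 13.9% of the class. The 4 cells with both had a median of 46114.5 UMIs against 20362.5 in the class. In 20 h males they were 22, 22 and 1 of 236 socket-like cells, or 4.55% of the Obp49a cells against 9.32% of the class. Of the 89 Obp28a socket-like cells in 24 h females, 4 (4.49%) had a UMI of Poxn, the gene that sets bristles apart as taste organs, and of the other 312 cells 4 (1.28%) had one. The intervals of these shares, 1.24% to 11.1% and 0.350% to 3.25%, overlapped.

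Obp18a (FBgn0030985, chromosome X, 19135081 to 19135868, minus strand) was low in each library: 0.645 CPM, 0.693 CPM, 0.729 CPM and 2.82 CPM in males of 12 h, 16 h, 20 h and 36 h, against 0.441 CPM in 24 h females and 1.70 CPM in 12 h females. The 36 h males and the 12 h females were the high ones. At 36 h unnamed cells held 49.3% of its UMIs, sheath-like cells 26.4% and epithelium-like cells 13.7%. A sheath-like cluster of 23 cells had 319 CPM and 26.0% of the UMIs, with a UMI in 87.0% of its cells. An unnamed cluster of 46 cells, led by CG32040, CG7126, CG14797, CG12911 and CG14280, had 67.2 CPM and 38.0%. In the other libraries hemocyte-like cells had the highest class level, 16.9 CPM in 12 h females and 3.27 to 4.57 CPM elsewhere.

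Obp57e (FBgn0050145, chromosome 2R, 20547816 to 20548291, minus strand) is known from adult taste hairs of the leg and, with its neighbour Obp57d, from work on host plant choice in Drosophila. It was barely present here, at 0.202 CPM, 0.997 CPM, 1.26 CPM and 1.89 CPM in males of 12 h, 16 h, 20 h and 36 h, and at 0.285 CPM in 24 h females against 0.885 CPM in 12 h females. No cell had more than 3 UMIs of it. Epithelium-like cells held the largest share in each library, and the 36 h shaft-like cells, at 6.20 CPM (4.75 to 7.95), had the highest level among named classes there. Of these cells, whose median depth was 29486 UMIs, 17.5% had a UMI, and 0.324% when thinned. Obp57d had no UMI in any library.

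Obp99c (FBgn0039682, chromosome 3R, 29685736 to 29689311, minus strand) was the blood cell member. Its level was 0.925 CPM, 5.29 CPM, 56.3 CPM and 702 CPM in males of 12 h, 16 h, 20 h and 36 h, against 112 CPM in 24 h females and 0.814 CPM in 12 h females. Each later male library stood above the one before it. The 36 h over 12 h male log2 ratio was 9.57 (9.31 to 9.84), and the 24 h over 12 h female ratio was 7.10 (6.82 to 7.40), or 6.06 with thinned cells. Gycalpha99B overlaps this gene on the other strand.

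In hemocyte-like cells Obp99c stood at 7.10 CPM (684 cells), 159 CPM (271), 1715 CPM (307) and 23728 CPM (325) in males of 12 h, 16 h, 20 h and 36 h, and at 2142 CPM (524) in 24 h females against 19.7 CPM (594) in 12 h females. The numbers of hemocyte-like cells, in brackets, did not run with these levels. Hemocyte-like cells held 95.8%, 89.4% and 94% of the UMIs in males of 16 h, 20 h and 36 h, 97.6% in 24 h females and 75.5% in 12 h females. In 12 h males most of the 119 UMIs (59.7%) lay in unnamed cells, 57.1% of all in a cluster of 299 cells that AstA-R1, CG31337, Rdl, Karl and Glt led. At 36 h each of the 325 hemocyte-like cells had Obp99c, and so did each of the 311 deep enough to be thinned, against 27.0% of epithelium-like cells (9.23% thinned), at median depths of 8348 and 7643 UMIs, and the epithelium-like level was 43.4 CPM.

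Obp83ef (FBgn0046876, chromosome 3R, 6109642 to 6111034, minus strand) shared that class, at a lower level than Obp99c in the libraries of 16 h and later. It stood at 1.04 CPM, 0.558 CPM, 6.15 CPM and 19.5 CPM in males of 12 h, 16 h, 20 h and 36 h, and at 4.65 CPM in 24 h females against 0.686 CPM in 12 h females. Within hemocyte-like cells it was 13.8 CPM, 11.7 CPM, 189 CPM and 662 CPM in the males, and 87.6 CPM in 24 h females against 16.9 CPM in 12 h females. The higher levels thus came in at 20 h, with a 20 h over 16 h log2 ratio in hemocyte-like cells of 4.01 (3.40 to 4.70), against 3.43 (3.26 to 3.60) for Obp99c. The gene shares 92 bases with Obp83cd on the opposite strand, and reads there could belong to either.

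Most hemocyte-like cells with Obp83ef had Obp99c too, a gene that most cells of the class had. At 36 h all 325 cells had at least 3 UMIs of Obp99c, and 216 had at least 3 of Obp83ef, so the overlap there was fixed. At 20 h 204 of 307 cells had Obp99c, 81 had Obp83ef and 69 had both, which is 85.2% of the Obp83ef cells, against 66.4% of the class with Obp99c. In 24 h females the numbers were 427, 100 and 87 of 524, or 87.0% of the Obp83ef cells against 81.5% of the class. The 20 h cells with both were deeper, at a median of 12203 UMIs, against 9438 in the class.

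**Figure D4:**
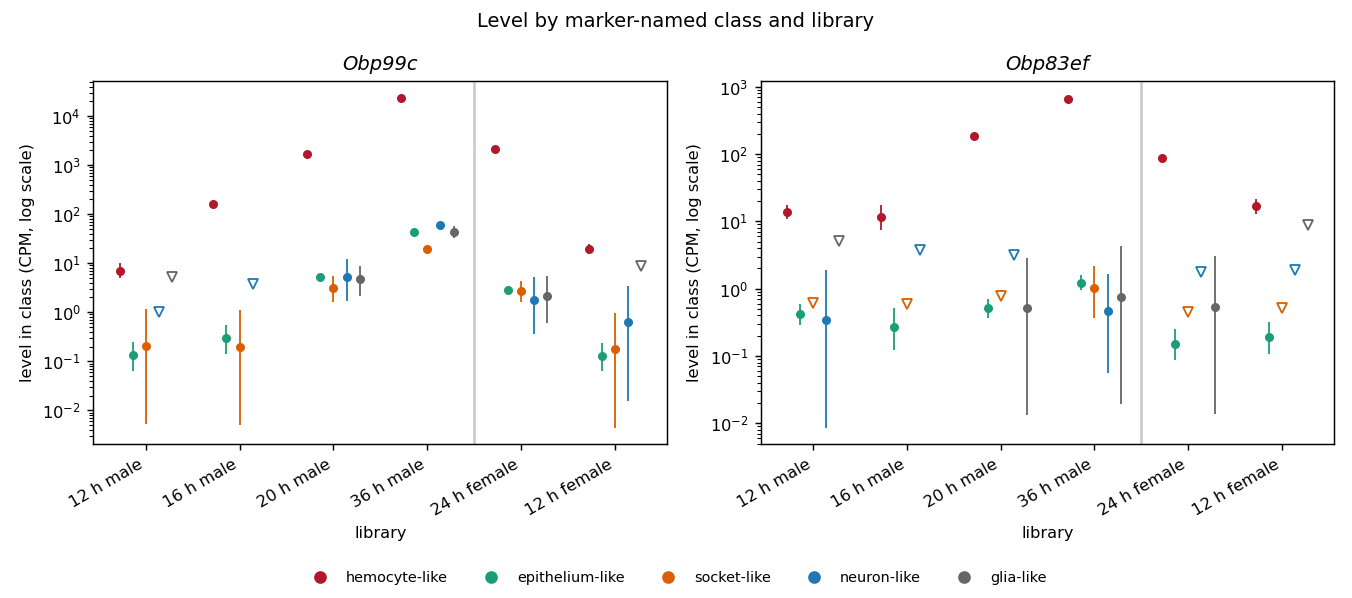
Levels of Obp99c and Obp83ef (CPM, log axis) by marker-named cell class in each library, for classes of at least 50 cells, with 95% Poisson intervals and open triangles for 0 UMIs at a floor of 3 counts. In hemocyte-like cells Obp99c reaches 23728 CPM and Obp83ef 662 CPM at 36 h, above every other class plotted.

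Obp99b (FBgn0039685, chromosome 3R, 29716254 to 29716896, minus strand), known from the fat body of adult male heads, was a rare RNA in the leg. It had 1.00 CPM, 0.270 CPM, 0.326 CPM and 1.24 CPM in males of 12 h, 16 h, 20 h and 36 h, and 0.0324 CPM in 24 h females against 1.52 CPM in 12 h females. No male excess was seen at 12 h, where the male over female log2 ratio was -0.60 (-0.93 to -0.27). Hemocyte-like cells of the 12 h females held 46.8% of its 190 UMIs at 22.8 CPM, and a single cell had 45 UMIs. In the male libraries epithelium-like cells held the largest share, 41.9%, 37.5%, 67.6% and 60.9% at 12 h, 16 h, 20 h and 36 h, of 129, 16, 34 and 128 UMIs. Hemocyte-like cells held 26.4% of them at 12 h, 31.25% (5 UMIs) at 16 h, 1 UMI at 20 h and none at 36 h, where the 3 counts that a 0 allows are 1.04 CPM. Their level was 6.90 CPM, 2.66 CPM and 0.327 CPM at 12 h, 16 h and 20 h. Epithelium-like cells had 0.713 CPM, 0.180 CPM and 0.311 CPM at these ages and 1.48 CPM at 36 h. At 12 h, 17 of the 34 hemocyte-like UMIs lay in 1 cell.

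Obp69a (FBgn0011279, chromosome 3L, 12396171 to 12396957, plus strand) is known from the antenna and from responses to social pheromone cues. Here it was low in each library but the 36 h one: 0.132 CPM, 0.220 CPM, 0.221 CPM and 4.25 CPM in males of 12 h, 16 h, 20 h and 36 h, and 0.0130 CPM in 24 h females against 0.383 CPM in 12 h females. The 36 h library was the only one with 50 UMIs of it, and the 36 h over 20 h log2 ratio was 4.27 (3.66 to 4.94). There 92.5% of its 440 UMIs lay in the 121 glia-like cells, at 310 CPM. The higher of their clusters was 64 cells led by Prip, CG14275, CG32032, Npc2b and CG9336, at 512 CPM, and the other was 57 cells at 101 CPM. In glia-like cells 68.6% had a UMI (30.7% thinned), against 0.923% of hemocyte-like cells (0.322% thinned), at median depths of 10412 and 8348 UMIs.

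Obp44a (FBgn0033268, chromosome 2R, 8134170 to 8135315, minus strand), known as a lipid carrier of glia in the developing brain, was more spread. Its level was 5.16 CPM, 2.75 CPM, 1.40 CPM and 1.57 CPM in males of 12 h, 16 h, 20 h and 36 h, and 0.395 CPM in 24 h females against 2.83 CPM in 12 h females. The glia-like level was 20.3 CPM in 20 h males and 31.2 CPM in 36 h males, where the cluster of 57 cells reached 61.9 CPM. In the other libraries with a glia-like class it rested on 0 or 1 UMI. The 99 cells of the 12 h males had no UMI, which allows up to 5.17 CPM, about the level of that library. The 155 cells of the 24 h females had 1 UMI (0.542 CPM). The 50 cells of the 12 h females had 1 UMI, or 2.93 CPM (0.0742 to 16.3), so the 12 h libraries do not show a low glia-like level. Epithelium-like cells held the largest share of Obp44a UMIs in the 12 h, 16 h and 20 h males and in both female libraries, and unnamed cells, at 31.3%, in the 36 h males. In 12 h males the highest cluster was unnamed, 220 cells led by wrapper, CG9336, sens-2, Ppn and Ndg, at 78.4 CPM and 31.3% of the UMIs, while epithelium-like cells held 54.2%. Clusters led by wrapper and CG9336 were also the highest at 16 h (45.0 CPM, unnamed) and in 12 h females (23.6 CPM, unnamed). In the marker lists used, wrapper stood under sheath and Ppn under hemocyte, and none of these clusters was named glia-like. Of the 121 glia-like cells at 36 h, 4 had at least 3 UMIs of Obp44a, 40 of Obp69a and 1 of both.

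Obp19c, with 71 UMIs in the 36 h males and 9 or fewer in the other libraries, was also glia-like, since 73.2% of those 71 UMIs were in that class at 39.6 CPM. They came mainly from the cluster of 57 cells (69.6 CPM, 63.4%), the same cluster in which Obp44a was highest.

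4 more members passed 50 UMIs in 1 or 2 libraries. Obp83cd had 82 UMIs in 12 h females, 84.1% of them in epithelium-like cells. Obp83b, known from the antenna, had 67 UMIs in 36 h males, with 43.3% in epithelium-like cells and the highest class level, 3.0 CPM, in neuron-like cells. Of the 13 neuron-like UMIs, 8 lay in 1 cell. Obp46a had 60 UMIs in 12 h males, 70.0% of them in unnamed cells (2.79 CPM) and 21.7% in muscle-like cells (3.88 CPM). In 12 h females unnamed cells held 52.6% of its UMIs and muscle-like cells 44.7%. Obp19d, known from smell and taste organs, had 57 UMIs in 36 h males, with 38.6% in unnamed cells. No library held more than 82 UMIs of any of them, so their class shares rest on few molecules.

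The remaining 33 members held 0 to 44 UMIs in any library and were below the detection minimum everywhere. 5 had none at all: Obp50a, Obp50b, Obp50c, Obp56e and Obp57d. A count of 0 allows up to 3 counts, which is 0.0194 CPM in the deepest library and 0.0507 CPM in the shallowest. 19 others stayed under 10 UMIs: Obp8a, Obp19a, Obp19b, Obp22a, Obp47a, Obp50d, Obp50e, Obp51a, Obp56b, Obp56c, Obp56f, Obp57a, Obp57b, Obp57c, Obp58b, Obp58d, Obp59a, Obp84a and Obp93a. The last 9 were Obp58c, Obp47b, Obp85a, Obp56g, Obp56d, Obp83a, Obp99d, Obp73a and Obp56h, with 13 to 44 UMIs at most. Obp83a, an abundant protein of adult smell hairs, had 23 UMIs at most. None of these 33 reached the detection minimum at this depth, which does not show that they were silent.

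**Figure D5:**
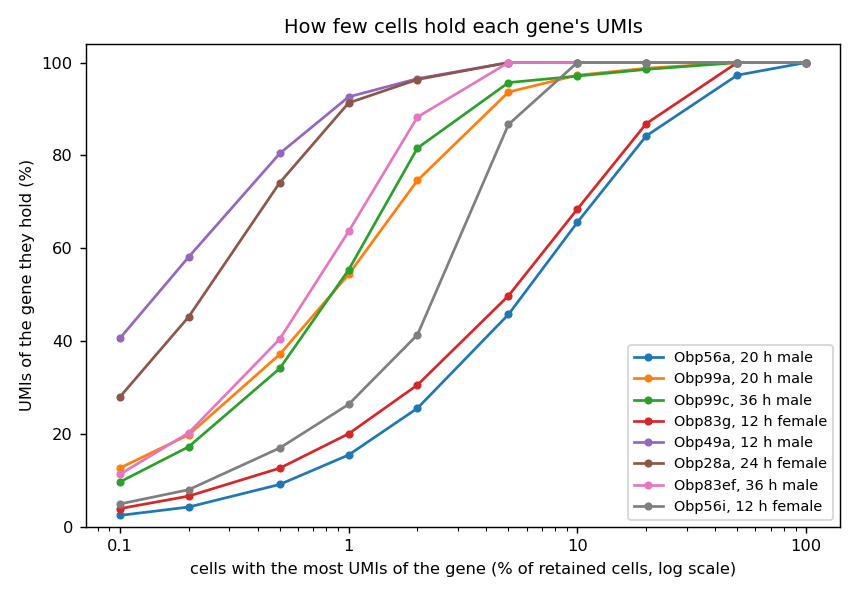
Share of a gene's UMIs (vertical axis, percent) held by the cells richest in it (horizontal axis, percent of the library's cells, log scale), for 8 members in the library of their highest level. Obp49a and Obp28a rise steepest, with 92.6% and 91.3% of UMIs in 1% of cells, and Obp56a slowest among the abundant genes, with 15.5%.

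The number of cells behind a level differed widely among members, as the plot of UMI shares shows. The richest 1% of cells held 92.6% of Obp49a UMIs in 12 h males, 91.3% of Obp28a in 24 h females, 63.6% of Obp83ef and 55.3% of Obp99c in 36 h males and 54.4% of Obp99a in 20 h males. For Obp83g in 12 h females the share was 20.0%, and for Obp56a in 20 h males 15.5%. The Obp49a and Obp28a levels of those libraries thus rested on 106 and 124 cells.

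Along the genome, 36 of the 51 members lay in 8 groups with gaps of at most 100 kb, and 15 lay alone. Detected neighbours in a group shared a class in some cases and differed in others. In the group of Obp56a to Obp56i on chromosome 2R, 171 kb with 9 members, only Obp56a and Obp56i were detected, both placed in epithelium. The group of Obp99a, Obp99c, Obp99d and Obp99b on chromosome 3R (45.2 kb) held the epithelial Obp99a, the hemocyte-like Obp99c, the undetected Obp99d and Obp99b. In the 4.2 kb group of Obp83cd, Obp83ef and Obp83g, also on 3R, all 3 were detected. Obp83g lay in tendon-like and epithelium-like cells and Obp83ef in hemocyte-like cells. Obp83cd, in the library with most of its UMIs, lay mainly in epithelium-like cells. Neither the 5 members of the Obp50 group nor the 4 of the Obp58 and Obp59 group were detected. By chromosome, 7 of 12 members were detected on 3R, 6 of 29 on 2R, 3 of 6 on X, 1 of 2 on 2L and 1 of 2 on 3L. Shares of all features by chromosome were not counted, so these counts are not read as a difference between chromosomes.

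Between libraries, a member was counted as higher or lower when its log2 ratio of CPM was 1 or more, or -1 or less, and when it had at least 50 UMIs in the higher library. Of 12 h males over 12 h females, 14 members could be compared, 0 were higher and 3 were lower (Obp18a, Obp57e and Obp99a), and Obp56a, at -0.97 (-1.04 to -0.90), was just inside the limit. Over all features 3.5% were higher, 7.71% were lower and 11.2% were past the limit in either direction. The members' median was -0.21 and that of all features 0.03. The log2 ratios of Obp18a and Obp57e were -1.40 (-1.78 to -1.02) and -2.13 (-2.81 to -1.50), from 83 and 26 UMIs in males against 213 and 111 UMIs in females.

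In males of 16 h over 12 h, 5 of 14 members were higher and 3 lower, where 9.18% of all features were higher, 10.5% lower and 19.7% past the limit in either direction. In 20 h over 16 h, 4 of 11 were higher and 1 was lower, against 8.7% and 14.0% of all features and 22.7% in either direction. In 36 h over 20 h, 7 of 16 were higher and 5 lower, against 20.6% and 13.5%, and 34.1% in either direction. In 36 h over 12 h, 10 of 18 were higher and 3 lower, against 27.9% and 29.7%, and 57.5% in either direction, and the median of the members was 1.5 against -0.13 for all features. Over that longest interval a majority of all features was past the limit, and the members' count is read against that. Among the higher members, Obp19c, Obp69a and Obp83b passed the detection minimum only in the 36 h males. Their entry into the comparison thus favoured a positive ratio. Obp19d also passed only in the 36 h males and Obp46a only in the 12 h males, and neither was past the limit. The part of this selection in the members' count and median was not tested. Obp19c and Obp69a were also among the higher members in 36 h over 20 h. In 24 h over 12 h females, 5 of 13 were higher (Obp28a, Obp56a, Obp83ef, Obp99a and Obp99c) and 7 were lower (Obp18a, Obp44a, Obp49a, Obp57e, Obp83cd, Obp83g and Obp99b), against 12.8% and 13.6%, and 26.4% in either direction. Consecutive male comparisons share a library and are not independent of each other.

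The members moved in different directions between ages. From 16 h to 20 h in males the higher ones were Obp56a, Obp83ef, Obp99a and Obp99c and the lower one was Obp83g. At 36 h over 20 h the higher ones were Obp18a, Obp19c, Obp69a, Obp83ef, Obp83g, Obp99b and Obp99c, and the lower ones Obp28a, Obp49a, Obp56a, Obp56i and Obp99a. Members placed in the same class did not all move together at 36 h: of the epithelial ones Obp56a, Obp99a and Obp56i were lower and Obp83g was higher. Obp28a and Obp49a, found in socket-like and shaft-like cells at 20 h, were both lower. Obp18a, which was higher, had 49.3% of its UMIs in unnamed cells and 26.4% in sheath-like cells at 36 h. Obp83g was also higher within epithelium-like cells, at 49.8 CPM in 36 h males against 16.2 CPM in 20 h males. The hemocyte-like members Obp99c and Obp83ef and the glia-like members Obp69a and Obp19c were higher. The 36 h tissue was also dissociated longer, and the part of this in the differences was not tested.

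Other genes of chemosensory organs and of small secreted carriers reached very different levels. Of a list of 40 such genes, 39 were in the features and 20 had 50 or more UMIs in at least 1 library. In single libraries, 50.8% to 56.0% of all features had as many, and their share over any of the libraries is not given here. In the comparison of 36 h over 20 h males, 7 of 19 were higher and 3 lower, where 20.6% of all features were higher and 13.5% lower. In 24 h over 12 h females, 6 of 17 were higher and 2 lower, against 12.8% and 13.6% of all features. In 12 h males over 12 h females 1 of 17 was higher and 1 lower, against 3.5% and 7.71%. The most abundant was Phk-3, of the insect chemosensory protein family, at 804 CPM, 28.6 CPM, 6.53 CPM and 32.9 CPM in males of 12 h, 16 h, 20 h and 36 h, and 5.76 CPM in 24 h females against 522 CPM in 12 h females. EbpIII, of the same family, had 4.38 CPM, 11.9 CPM, 22.1 CPM and 70.5 CPM in the males. The secreted sterol carriers Npc2a and Npc2b ran from 41.3 to 89.5 CPM and from 46.1 to 122 CPM over the 6 libraries. Snmp2, a membrane protein of the CD36 family found in support cells, had 12.3 CPM, 3.33 CPM, 2.56 CPM and 1.77 CPM in males of 12 h, 16 h, 20 h and 36 h, and 1.46 CPM in 24 h females against 12.6 CPM in 12 h females. The taste bristle gene Poxn stood at 1.57 CPM, 1.74 CPM, 2.49 CPM and 3.19 CPM in the males, and at 0.946 CPM in 24 h females against 1.23 CPM in 12 h females. The secreted carrier gene to (takeout) had 1.45 CPM at 12 h and 0.0483 CPM at 36 h in males. lush, a member of the Obp family by its protein, needed for sensing a male pheromone, had 38 UMIs at most, and Snmp1, its partner in that response, had 12.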

How the data were processed

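Single-cell 3′ RNA libraries of the pupal first tarsal segment were used, 1 per sex and age. The deposited matrices hold UMI counts per gene and cell, which the authors made with Cell Ranger 7.0.0 on genome build BDGP6, per the submitters' processing notes. 2 further matrices that match no sample of the labels were not used. Coordinates come from a BDGP6 gene annotation.

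Barcodes under 500 genes or over 10% mitochondrial UMIs were dropped. The cells with the highest Scrublet scores, 0.8% per 1000 cells, were removed as doublets, 901 to 1552 per library. Each library was clustered alone without Obp genes (scanpy 1.11.5, 2000 variable genes, 30 components, 15 neighbours, Leiden resolution 1). Clusters were named when 3 markers of a class were at least 2-fold higher and in 10% of cells, with 10 CPM added. For every class but epithelium, these had to include a defining marker, such as repo for glia. Clusters not otherwise named were called epithelium-like with 6 epithelial markers present. Present meant in 10% of cells and at a log2 ratio to the other cells of -1 or more, so no enrichment was needed. Naming limits, such as the defining markers, a minimum of 10 cells and a bar on low UMI medians, were set after the clusters were seen. The members, marker lists and pathway list were chosen with earlier results of these data known.

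Levels are CPM from summed UMIs, with exact Poisson intervals, exact conditional binomial intervals for ratios and Clopper-Pearson intervals for shares (scipy 1.17.1), all at 95% and covering counting error only. For a gene with no UMI the bound is 3 counts. The intervals were tested on simulated data. Described in full were the 10 members with the highest CPM and any other with 50 UMIs in at least 3 libraries. The alternatives were other cell filters, thinning each cell to 2000 UMIs, TMM factors (edgeR 4.0.16, R 4.3.3), other cluster settings, and 2 sets of cells left out, chosen after seeing the data. Protein and promoter sequences were not used here.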

Additional observations from a re-analysis of the deposited data

How the results depend on the processing

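No paired analysis was possible because each group held 1 library. The count of detected Obp genes, 18 at a minimum of 50 UMIs, was 24 at 20 UMIs and 11 at 200 UMIs. By library, a minimum of 200 UMIs left 6 members in 12 h males, 7 in 36 h males and 7 in 12 h females (13, 15 and 13 at 50), and a minimum of 20 UMIs gave 14 in 16 h males and 17 in 20 h males (9 and 11 at 50). The class that held most UMIs at the library of the highest level was the same for 13 of the 13 fully described members under each cluster setting run and with cells of at least 1000 genes, and for 12 with cells of at least 200 genes or with no doublet removal, where Obp57e went to shaft-like cells. Of 48 log2 ratios of 1 or more, or -1 or less, 1 came under the limit in the alternatives run: Obp28a at 36 h over 12 h males, 0.94 with thinned cells and 1.30 without thinning. Across 401 alternative values, 10 passed the limit that had not: Obp56a in 12 h males over 12 h females with no doublet removal (-1.08), all barcodes (-1.08) or thinned cells (-1.28), and Obp49a, Obp28a, Obp44a and Obp57e at 20 h over 16 h males. No ratio past the limit changed sign. Thinning moved 52 of the library levels beyond their counting intervals and the other cell filters 12 to 15. Depth limits members under 50 UMIs, and the 16 h library most.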
